A study of Sus scrofa with 15 samples.

Results

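Pig oocytes that had been through *in vitro* maturation but showed no first polar body were compared with oocytes taken at the germinal vesicle stage. The members were chosen by their labels alone, namely the 5 libraries named ‘damaged’ and the 5 named GV, which are 10 of the 15 libraries of the series. GV oocytes came from fresh ovarian follicles, were not cultured and had no polar body. ‘Damaged’ oocytes came from cumulus oocyte complexes (COCs, the oocyte with its layers of cumulus cells) matured in culture for 44 h by their labels. They were sorted by the absence of a first polar body under a stereomicroscope. By the study's methods, both GV and ‘damaged’ oocytes were stripped of cumulus cells with hyaluronidase, and GV oocytes were then vortexed. The remaining 5 libraries, named MII (metaphase II), came from the same culture but from oocytes with a polar body, and are used here only as a point of reference. Sow ovaries came from an abattoir, and breed and age are not given in the sources used here.

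Each library was made from 15 pooled oocytes, so values are means over a pool and the spread between oocytes was not measured. The label ‘damaged’ rests only on the polar body, and no measurement of nuclear stage or viability of these oocytes is given in the sources used here. Because every ‘damaged’ library was cultured and no GV library was, the effects of culture and of meiotic stage cannot be told apart. The libraries were made from poly(A) RNA, so a change in the number of molecules and a change in the length of the poly(A) tail cannot be told apart either, and RNA per oocyte was not measured. The submitters' gene table gives 7 of the 15 libraries under another name than their own transcript files do, namely GV replicates 1 to 3, MII replicates 1 and 2 and ‘damaged’ replicates 1 and 2. Which source is right for ‘damaged’ against MII cannot be told from the files. The names of the transcript files were used, and the main counts are also given for the 8 libraries that both sources name alike, which leave 2 GV, 3 MII and 3 ‘damaged’ libraries.

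A fully grown oocyte waits in prophase of the first meiotic division with its nucleus, the germinal vesicle, intact. Cyclic AMP from the oocyte and its surrounding cells keeps the cyclin-dependent kinase CDK1 inactive, and once this brake is lifted, CDK1 with cyclin B dissolves the nuclear envelope, a spindle forms, the anaphase-promoting complex (APC/C) releases the chromosome arms from cohesin, and an actin-driven cleavage pinches off the first polar body. Transcription is silent throughout, so the RNA of a maturing oocyte is what the growing oocyte stored, and it is masked, given longer or shorter poly(A) tails, and degraded on a programme that continues to fertilisation.

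The libraries were of unequal depth, with 12 to 14.5 M estimated counts in 4 of the GV libraries, 6.40 M in GV replicate 3, and 15.9 to 19.6 M in the ‘damaged’ libraries. GV replicate 3 also stood apart in composition, since its 10 most abundant genes held 13.3% of its counts against 7.18% to 7.47% in the other GV libraries, so results are also given without it where a count or a call moved. Oocyte markers stood above those of all other cells in every library, with a summed level of 7589 to 12914 counts-per-million (CPM) in GV and 6265 to 8308 CPM in ‘damaged’ oocytes over the 13 markers of 15 that had a row. Markers of cumulus and granulosa cells summed to 96.7 to 154 CPM in GV and 188 to 289 CPM in ‘damaged’ oocytes, most of it from *KITLG* with a mean of 95.3 and 216 CPM, and none of the 13 measured was at 0 throughout either group. Cumulus expansion markers summed to 10.2 to 21.3 CPM in GV and 4.74 to 6.86 CPM in ‘damaged’ oocytes, blood markers to 10.2 to 34.3 and 11.3 to 24.6 CPM, and theca markers to 0.76 to 3.61 and 1.58 to 7.14 CPM. Of the markers of at least 10 CPM in a group, *KITLG* (1.18), *FST* (1.57) and *PECAM1* (1.55) rose, *CD14* fell (-1.85) and *SERPINE2* did not pass the test (-0.57). A pair of less abundant markers were DEGs as defined below, both lower, namely *HSD17B1* of granulosa cells (3.62 ± 1.17 CPM in GV, 0 CPM in 4 ‘damaged’ libraries and 0.0778 CPM in the other) and *EREG* of cumulus expansion (8.59 ± 2.86 to 1.77 ± 0.358 CPM). The part of these other cells in the results below was not tested.

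‘Damaged’ oocytes differed from GV oocytes in a large part of the transcriptome, and most of the large differences were falls. Of 13111 genes tested, 691 were differentially expressed genes (DEGs) with a higher level in ‘damaged’ oocytes (5.27%) and 2157 were DEGs with a lower level (16.5%), where a DEG has a false discovery rate (FDR) under 0.01 and a log2 fold change beyond 2 in either direction. With the FDR alone, 3706 genes rose (28.3%) and 4304 fell (32.8%), and "rose" and "fell" are used below in that sense. The groups did not overlap for most DEGs, as all 5 ‘damaged’ libraries lay above all 5 GV libraries in 669 of the 691 and below them in 2112 of the 2157. Over all genes tested, such separation was seen upwards in 3323 genes (25.3%) and downwards in 3799 genes (29.0%). The DEGs that rose took up 7.58% to 14.8% of the counts of a GV library and 30% to 33.4% of a ‘damaged’ library, while the DEGs that fell went from 10.4% to 11.5% down to 0.675% to 0.837%.

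**Figure D1:**
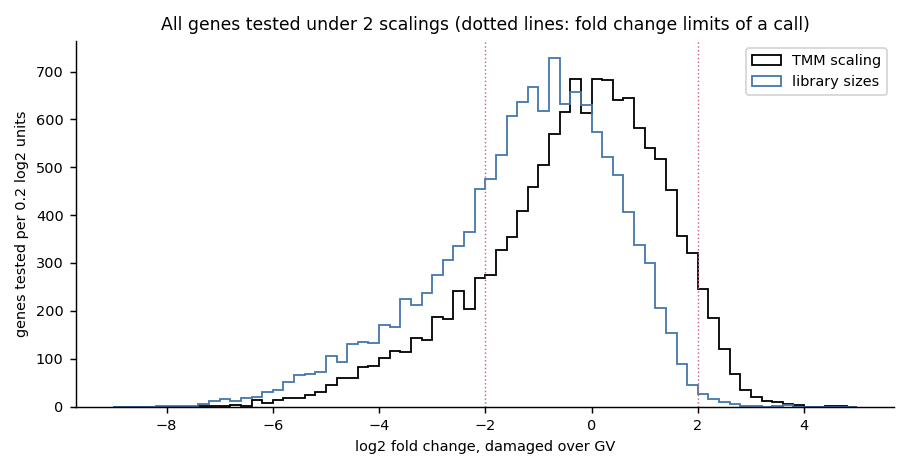
Distribution of the log2 fold change of ‘damaged’ over GV oocytes (x axis) over all 13111 genes tested, as number of genes (y axis), with trimmed mean (TMM) scaling and with scaling to library size only; dotted lines mark log2 fold changes of 2 in each direction. The median gene lies at -0.14 with the first scaling and at -1.03 with the second, so the whole distribution shifts and fewer genes lie beyond the upper line.

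The split between rises and falls depended on how the libraries were put on one scale, as the plot of fold changes under both scalings shows. With TMM scaling, which takes most genes as not changed, 24.3% of the DEGs were higher in ‘damaged’ oocytes. With scaling to library size alone, the median over all genes moved from -0.14 to -1.03 on the log2 scale, 64 genes were DEGs with a higher level (0.488%) and 3736 were DEGs with a lower level (28.5%), while 1508 genes rose (11.5%) and 7334 fell (55.9%). Of the 691 higher DEGs, 64 were DEGs under both scalings and 644 rose under both, and all 2157 lower DEGs were DEGs under both. Values below are from TMM scaling, and a gene group whose median changes sign with library sizes is named as such. Gene groups are described by the members tested, and listed members without a row or with too few counts are left out of the counts. Each group count is to be read beside all genes tested, of which 28.3% rose and 32.8% fell, and 5.27% were higher and 16.5% lower DEGs.

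Leaving out GV replicate 3 gave 540 higher DEGs (4.08%) and 2165 lower DEGs (16.4%), of which 520 and 2069 were among those called with all libraries. With the 8 libraries named alike in both sources, 688 genes were higher DEGs (4.97%) and 2244 lower DEGs (16.2%). Of the 691 and 2157, 582 and 1957 were called again in these 8 libraries, and every one of the 2848 kept its direction. The 8 are part of the 15 libraries that gave the calls, so the kept direction was largely given in advance.

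The largest rise of a gene with a symbol was that of *SNX7*, a sorting nexin of endosomal membranes. Its level was 285, 133, 67.8, 260 and 126 CPM in GV replicates 1 to 5, and 3839, 3805, 3123, 3536 and 3098 CPM in the ‘damaged’ replicates, a log2 fold change of 4.49 (SE 0.285, FDR 1.44e-10). The lowest ‘damaged’ library was thus far above the highest GV library. Among the 12 genes with a symbol, non-overlapping groups and at least 10 CPM that rose most, log2 fold changes ran from 3.11 to 4.49, and all 12 were also DEGs without GV replicate 3 and with library sizes. They included *MTBP* (3.46), which acts at the start of DNA replication, *RAD1* (3.21), a subunit of the DNA damage checkpoint clamp, *CENPI* (3.20), a centromere protein to which kinetochores attach, *DDX3X* (3.24), an RNA helicase, and *RBPJ* (3.11), the DNA-binding partner of Notch. Also among them were the oocyte secreted protein gene *OOSP3* (3.42), *ZNF567* (3.28), *SFT2D1* (3.24), *HNF4G* (3.19), *BTG4* (3.15) and *DUS4L* (3.14).

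The 12 largest falls, chosen by the same rule, ended close to the limit of detection. *SDS*, encoding a serine dehydratase, was at 11 to 12.7 CPM in 4 GV libraries and 21.1 CPM in GV replicate 5, and at 0.312, 0, 0.0622, 0.0656 and 0 CPM in the ‘damaged’ libraries (log2 fold change -7.28, SE 0.561, FDR 1.40e-09). *YIF1A*, which works in transport between endoplasmic reticulum and Golgi, went from 38.3 ± 19.5 CPM to 0.349 ± 0.359 CPM (SD, n = 5; log2 fold change -6.91). *CDT1*, which licenses origins for DNA replication, fell by 6.35 on the log2 scale, *EIF3F*, a subunit of translation initiation factor eIF3, by 6.32, and *TCIRG1*, a subunit of the vacuolar proton pump, by 6.68. The others were *ZNRD2* (-6.79), *NOP9* (-6.42), *PDIA2* (-6.31), *TNK1* (-6.30), *CEP131* (-6.27), *SPRY2* (-6.27) and *SLC25A10* (-6.22). Values in the ‘damaged’ libraries rest on 0 to 15.5 estimated counts each for these 12 genes, so the size of each fold depends on how counts near 0 are treated.

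The machinery that starts meiotic division moved in both directions, as did all genes, of which 28.3% rose and 32.8% fell. Of 15 genes of the CDK1 and cyclin B switch tested, from 16 listed, 6 rose, 5 fell and 4 passed neither way, with 2 higher and 4 lower DEGs and a median log2 fold change of -0.05 against -0.14 for all genes. *CCNB1* (chr16:47338239-47348385, Sscrofa11.1), the cyclin B that activates CDK1, was at 1229, 789, 572, 972 and 721 CPM in GV and at 4554, 5423, 5467, 5561 and 4562 CPM in ‘damaged’ oocytes. All ‘damaged’ libraries were above all GV libraries, with a log2 fold change of 2.62 (SE 0.166, FDR 1.37e-10). *CKS1B*, a small subunit of the CDK complexes, was the other higher DEG, at 2243 ± 790 CPM in GV and 8962 ± 1098 CPM in ‘damaged’ oocytes (log2 fold change 2.06), and at 1.91 without GV replicate 3 it was no longer past the fold threshold.

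*CDK1* itself (chr14:64233945-64255290) went the other way. It was at 790, 277, 68.5, 446 and 218 CPM in GV and at 22, 25.1, 22.5, 23.4 and 20 CPM in ‘damaged’ oocytes, a log2 fold change of -3.60 (SE 0.448, FDR 7.34e-07). GV libraries varied widely for this gene while the ‘damaged’ libraries were closely alike, and without GV replicate 3, the lowest of the GV libraries, the log2 fold change was -4.07. The other lower DEGs of this group were *CDC25B* and *CDC25A*, the phosphatases that activate CDK1, with log2 fold changes of -3.60 and -3.32, and *ARPP19* (-2.71), which holds in check the phosphatase opposing CDK1. *CDC25B* was at 121, 118, 95, 93.9 and 186 CPM in GV and 10.8, 5.42, 17.6, 8.38 and 10.1 CPM in ‘damaged’ oocytes. *WEE2*, the oocyte kinase that inhibits CDK1, rose from 574 ± 81.7 to 2121 ± 574 CPM (log2 fold change 1.84, FDR 4.75e-08) without reaching the fold threshold, and *PLK1*, which promotes entry into division, fell by 1.12 on the log2 scale (FDR 0.000487).

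**Figure D2:**
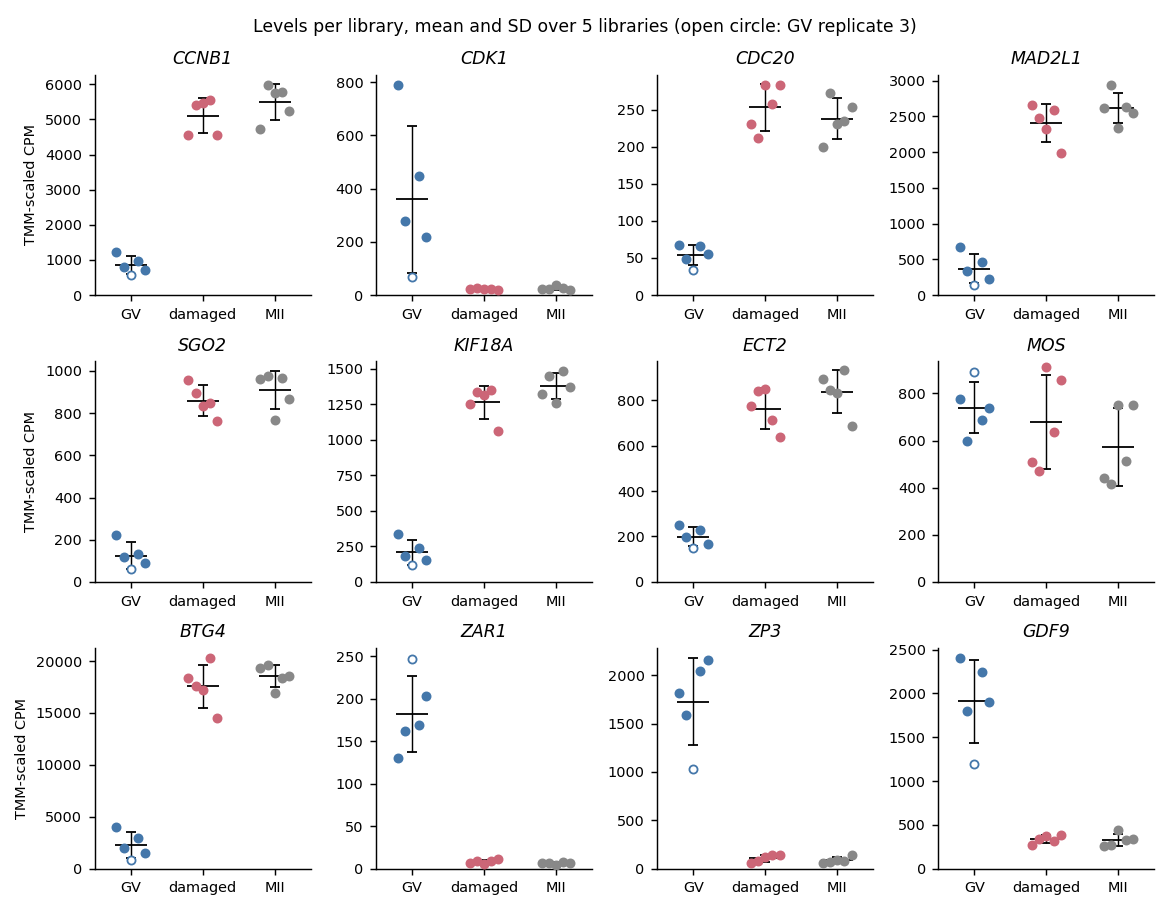
Level of 12 genes in counts-per-million (y axes, each gene on its own scale) in the 5 GV, 5 ‘damaged’ and 5 MII libraries (x axes); each point is a library, bars show the mean and SD, and GV replicate 3 is drawn as an open circle. The ‘damaged’ libraries sit beside the MII libraries for each gene, as for *CCNB1* with means of 5113 and 5501 CPM against 857 CPM in GV.

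Of 11 genes of the cyclic AMP brake tested, from 13 listed, 3 rose and 4 fell, with a median of -0.44. Of these, 1 was a higher and 2 were lower DEGs, where 5.27% and 16.5% of all genes were. *PRKAR1A*, a regulatory subunit that holds protein kinase A inactive until cyclic AMP binds, was at 186, 167, 121, 178 and 152 CPM in GV and 742, 835, 729, 873 and 794 CPM in ‘damaged’ oocytes (log2 fold change 2.31, SE 0.133, FDR 4.85e-11). The lower DEGs were *AKAP1* (-3.37), which tethers protein kinase A to mitochondria, and *NPR2* (-3.19), a natriuretic peptide receptor known from cumulus cells, which was at only 1.27 to 2.39 CPM in GV. *PDE3A*, the phosphodiesterase that removes cyclic AMP from the oocyte, rose by 0.92 with TMM scaling and stood at 0.02 with library sizes. *GPR3*, the receptor that keeps cyclic AMP high, had 0 to 5.16 counts in GV and 0 to 4.92 counts in ‘damaged’ libraries and was too low to test.

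Genes of the APC/C and its inhibitors rose more often than they fell with TMM scaling. Of 24 tested of 26 listed, 16 rose and 3 fell, with 3 higher and 2 lower DEGs and a median of 1.23 on the log2 scale. With library sizes the median was 0.33, 8 rose, 0 were higher DEGs and 3 lower DEGs, and without GV replicate 3 there were 2 higher and 3 lower DEGs. *CDC20*, which activates the complex at anaphase, was at 67.5, 48.6, 33.6, 65.5 and 55.5 CPM in GV and 231, 212, 283, 257 and 283 CPM in ‘damaged’ oocytes (log2 fold change 2.24, SE 0.17, FDR 1.09e-09). *MAD2L1*, the spindle checkpoint protein that restrains CDC20, was at 667, 338, 146, 465 and 227 CPM in GV and 2652, 2480, 2321, 2593 and 1991 CPM in ‘damaged’ oocytes (log2 fold change 2.89). Both an activator and its inhibitor thus stood higher in every ‘damaged’ library than in any GV library. *ANAPC15* (2.11), which helps to free the APC/C from the checkpoint, was the third higher DEG, at 1.89 without GV replicate 3. *FZR1*, the activator that keeps cyclin B low during prophase arrest, fell from 37.3 ± 11.2 to 5.19 ± 1.88 CPM (log2 fold change -2.84), and the subunit *CDC26* fell from 77.6 ± 26.8 to 10.1 ± 3.41 CPM (-2.92). *FBXO43* (EMI2), which blocks the APC/C at metaphase II, rose by 1.30 on the log2 scale (FDR 1.08e-07).

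*MOS*, the kinase that starts the MAP kinase cascade of metaphase II arrest, did not pass the test at the RNA level. It was at 778, 599, 892, 686 and 739 CPM in GV and at 510, 471, 911, 637 and 857 CPM in ‘damaged’ oocytes, and the groups overlapped (log2 fold change -0.16, SE 0.207, FDR 0.495). Of 6 genes of this cascade tested, from 8 listed, 3 fell and 3 passed neither way, with a median of -0.58. The 1 DEG among them was *MAP2K2*, which fell from 9.79 ± 3.58 to 0.315 ± 0.131 CPM (-4.80). A share of 1 in 6 is near the 16.5% of lower DEGs over all genes.

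The spindle group held the highest count of DEGs with a raised level of the 23 groups listed with TMM scaling, and none with library sizes. Of 24 spindle and kinesin genes tested, from 28 listed, 19 rose, 1 fell and 4 passed neither way, and 10 were higher DEGs and none lower, against 5.27% and 16.5% of all genes. The median log2 fold change was 1.73 with TMM scaling, 0.83 with library sizes and 1.59 without GV replicate 3. Without that library 8 were higher DEGs, and with library sizes 15 rose, 0 were higher DEGs and 1 was a lower DEG. *KIF18A*, a kinesin that limits microtubule length at chromosomes, was at 340, 184, 119, 236 and 156 CPM in GV and 1253, 1335, 1314, 1346 and 1064 CPM in ‘damaged’ oocytes (log2 fold change 2.69, SE 0.198, FDR 7.87e-10). *NEDD1*, which brings the microtubule nucleator gamma-tubulin to the spindle, rose from 84.6 ± 33.0 to 523 ± 65.9 CPM (2.69). The other 8 were the kinesins *KIF20B* (2.39), *KIF15* (2.13) and *KIF4A* (2.04), the kinetochore genes *NDC80* (2.56) and *CENPE* (2.27), and the spindle assembly genes *BORA* (2.59), *TPX2* (2.36) and *CKAP5* (2.09). *BIRC5* (survivin), a subunit of the chromosomal passenger complex, was the single gene of the group that fell (-1.28).

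Cohesin and its protectors showed the same direction. Of 14 tested of 17 listed, 11 rose, 1 fell and 2 passed neither way, with 5 higher DEGs, none lower and a median log2 fold change of 1.54 (0.64 with library sizes), against 5.27% and 16.5% of all genes. Without GV replicate 3 there were 4 higher DEGs, and with library sizes 8 rose, 0 were higher DEGs and 1 was a lower DEG. *SGO2*, the shugoshin that protects centromeric cohesin through the first division, was at 224, 118, 59.4, 133 and 90.2 CPM in GV and 959, 894, 832, 848 and 763 CPM in ‘damaged’ oocytes (log2 fold change 2.90, SE 0.229, FDR 1.92e-09). *SMC1B*, the meiosis-specific cohesin subunit, rose from 314 ± 97.7 to 1658 ± 101 CPM (2.45). The remaining DEGs were *SGO1* (2.31), *STAG2* (2.23) and *STAG1* (2.05), while *STAG3*, the meiotic counterpart of the latter, fell (-1.21).

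The genes of polar body extrusion and of the oocyte's actin changed less. Of 30 tested of 34 listed, 13 rose, 3 fell and 14 passed neither way, and the median log2 fold change was 0.24 with TMM scaling but -0.66 with library sizes. None was a higher DEG and 1 was a lower DEG, *ARPC3*, a subunit of the ARP2/3 complex that branches actin, at 80.1, 59.0, 30.1, 52.9 and 44.0 CPM in GV and 9.34, 5.13, 5.99, 5.05 and 7.20 CPM in ‘damaged’ oocytes (log2 fold change -3.00). *ECT2*, which activates RhoA for the contractile ring, was at 251, 196, 150, 228 and 169 CPM in GV and 774, 841, 848, 714 and 636 CPM in ‘damaged’ oocytes. It rose by 1.95 on the log2 scale (SE 0.15, FDR 1.35e-09), just short of the threshold of 2, and *PRC1*, which bundles the midzone microtubules, rose by 1.89.

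Several genes that act at the cleavage furrow or push the spindle to the cortex had small differences whose sign or size rested on the scaling. *ANLN* (anillin), a scaffold of the contractile ring, rose from 99.8 ± 9.94 to 196 ± 33.6 CPM with TMM scaling (0.96) and stood at 0.07 with library sizes. *RACGAP1*, the partner of ECT2 at the midzone, rose by 0.65 (FDR 0.0077) with TMM scaling and stood at -0.25 with library sizes. *FMN2*, the formin that nucleates the actin that moves the meiotic spindle, was at 20.4, 15.8, 12.9, 15.0 and 14.0 CPM in GV and 21.6, 22.3, 17.2, 18.5 and 20 CPM in ‘damaged’ oocytes, did not pass the test (0.35, FDR 0.0631), and stood at -0.55 with library sizes. Further members that rose were *RDX* (radixin, 1.55) and *ACTR2* (1.54), and those that fell besides *ARPC3* were *CFL1* (cofilin, -1.48) and *MYH9* (non-muscle myosin, -1.11).

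Among the proteins that store maternal RNA, few genes changed. *ZAR1* (chr8:38386520-38391618), which binds and holds stored RNA in the oocyte, was at 130, 162, 247, 169 and 203 CPM in GV and 6.78, 9.02, 5.78, 9.25 and 11.5 CPM in ‘damaged’ oocytes (log2 fold change -4.43, SE 0.215, FDR 8.49e-12). *YBX2* (MSY2), the main protein packing oocyte RNA, fell by 5.47 on the log2 scale and *PATL2*, a repressor of translation in oocytes, by 2.92. These 3 were the DEGs among 20 storage genes tested, from 22 listed, of which 2 rose, 4 fell and 14 passed neither way, with a median of -0.13, and 3 of 20 is near the 16.5% of all genes. *CPEB1*, which regulates tail lengthening, overlapped between the groups (108 ± 7.72 and 98.0 ± 29.5 CPM, log2 fold change -0.18, FDR 0.376).

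Among 26 genes of deadenylation and decay tested, from 28 listed, 15 rose, 4 fell and 7 passed neither way, with a median log2 fold change of 0.72 with TMM scaling and -0.17 with library sizes. *BTG4* (chr9:39253116-39281327), the oocyte adaptor that brings the CCR4-NOT deadenylase to its targets, was at 4004, 2005, 803, 2999 and 1506 CPM in GV and 18347, 17565, 17203, 20254 and 14540 CPM in ‘damaged’ oocytes. Its log2 fold change was 3.15 (SE 0.283, FDR 9.80e-09) and 2.23 with library sizes. *XRN1*, the exonuclease that digests decapped RNA, rose from 24.2 ± 4.36 to 125 ± 7.51 CPM (2.37), and the decapping enzyme *DCP2* rose by 2.19. *ZFP36L2*, which recruits decay factors to AU-rich sequences, was the lower DEG of the group (-2.19), at -1.95 without GV replicate 3.

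Genes of the zona pellucida and of the oocyte's secreted factors moved in both directions, where 28.3% of all genes rose and 32.8% fell. *ZP3*, a structural protein of the zona, was at 1820, 1587, 1028, 2042 and 2151 CPM in GV and 61.8, 78.3, 122, 137 and 138 CPM in ‘damaged’ oocytes (log2 fold change -4.03, SE 0.252, FDR 1.20e-10). *GDF9*, the growth factor with which the oocyte acts on cumulus cells, fell from 1908 ± 469 to 337 ± 47.8 CPM (-2.47). Of the 8 zona and secreted genes tested, 2 rose, 3 fell and 3 passed neither way, and *OOSP2* (2.82) and *OOSP3* (3.42) were higher DEGs. *OOSP3* stood at 573, 341, 188, 425 and 326 CPM in GV and at 3745, 4296, 3203, 3983 and 3576 CPM in ‘damaged’ oocytes.

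The following groups are to be read beside 5.27% higher and 16.5% lower DEGs over all genes. Of 8 oocyte transcription factors tested, from 10 listed, 1 rose, 4 fell and 3 passed neither way. The 3 DEGs were *NOBOX* (-3.17), *FIGLA* (-3.11) and *LHX8* (-2.65), all known for driving the genes of the growing oocyte. *FIGLA* was at 34.8 to 44.1 CPM in GV and 3.99 to 5.38 CPM in ‘damaged’ oocytes. Only 4 of 9 listed genes of the subcortical maternal complex were tested. Of these 4, 1 rose and 2 fell, and *PADI6* was a lower DEG (563 ± 119 to 127 ± 25.7 CPM, -2.14). Of 11 genes of maternal chromatin and DNA methylation tested, from 15 listed, 4 rose, none fell and 1 was a DEG, the histone chaperone *ASF1B* (2.27). The group median was 0.06, and -0.83 with library sizes. None of 14 genes of sperm binding and egg activation tested, from 15 listed, was a DEG (1 was a lower DEG without GV replicate 3). Of the 14, 2 rose, 4 fell and 8 passed neither way.

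**Figure D3:**
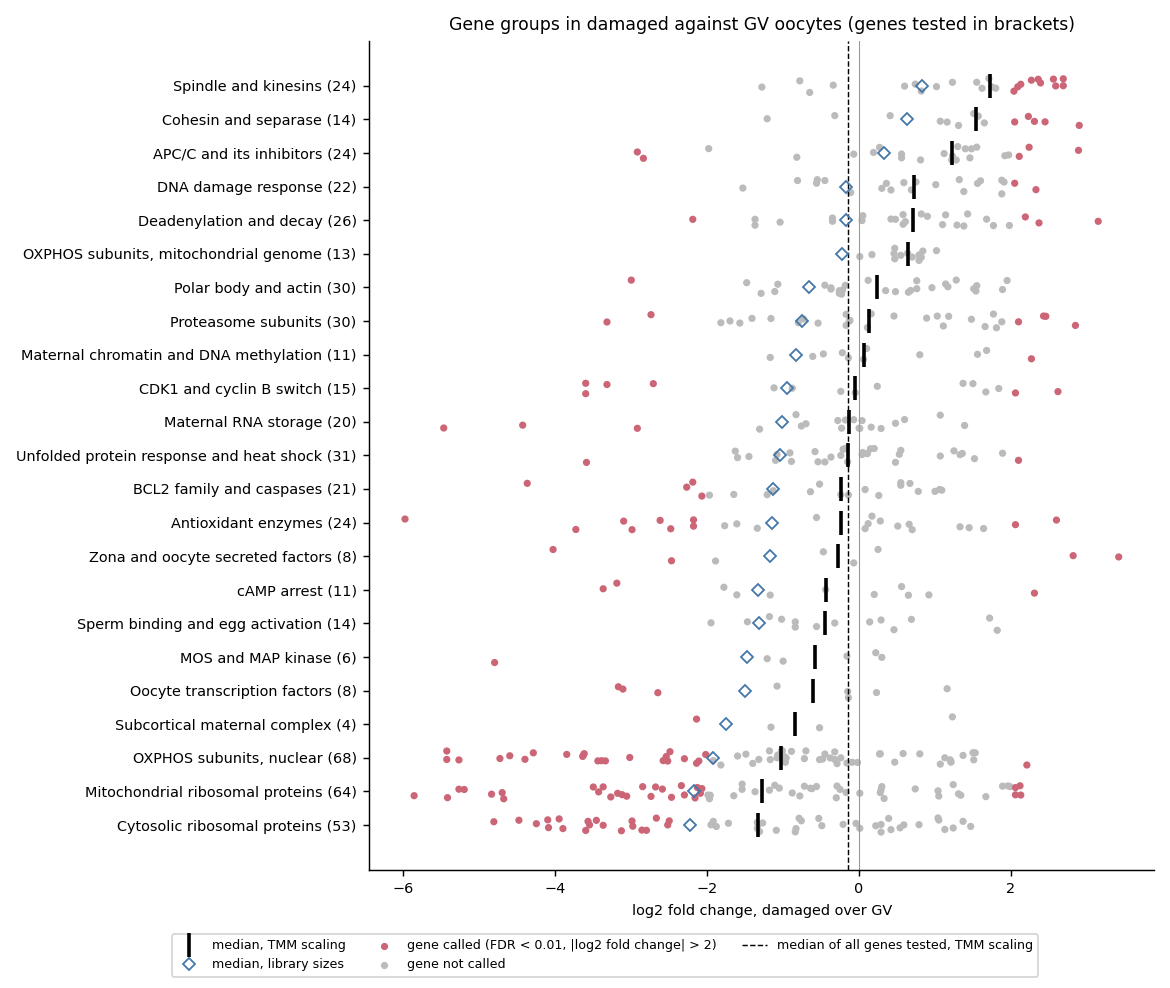
Log2 fold change of ‘damaged’ over GV oocytes (x axis) for each tested gene of 23 gene groups (y axis); red points are DEGs, grey points are other genes, black bars mark the group median with TMM scaling, blue diamonds the median with library sizes and the dashed line the median of all genes. The spindle group lies farthest right with a median of 1.73, and the cytosolic and mitochondrial ribosomal proteins farthest left with -1.33 and -1.28.

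Ribosomal proteins and respiratory subunits encoded in the nucleus mostly fell in ‘damaged’ oocytes, where 32.8% of all genes fell and 16.5% were lower DEGs. Of 53 cytosolic ribosomal proteins tested, 34 fell and 9 rose, and 20 were lower DEGs and none higher, with a median log2 fold change of -1.33. *RPLP2*, of the ribosomal stalk, was at 74.3, 74.5, 76.6, 67.4 and 64.3 CPM in GV and 1.87, 2.88, 3.36, 2.30 and 2.31 CPM in ‘damaged’ oocytes (-4.81, SE 0.229, FDR 6.48e-12). *RPL23A*, of the large subunit, fell from 109 ± 19.5 to 7.73 ± 10.3 CPM (-4.48), with one ‘damaged’ library at 26.1 CPM and the others at 1.97 to 4.25 CPM. Ribosomal protein genes have many processed pseudogenes, and how reads were shared with them was not tested.

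Of 64 mitochondrial ribosomal proteins, 39 fell and 13 rose, with 25 lower and 4 higher DEGs and a median of -1.28. *MRPL28* (-5.86) and *MRPL12* (-5.42) had the largest falls, and *MRPS35* (2.13) and *MRPL44* (2.12) were among the higher DEGs. *MRPL44* was at 17.3 to 26.6 CPM in GV and 76.1 to 90.3 CPM in ‘damaged’ oocytes. Without GV replicate 3 the counts were 28 lower and 1 higher, and *MRPS35* was at 1.93.

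Of 68 nuclear genes of oxidative phosphorylation, 41 fell and 11 rose, with 23 lower and 1 higher DEG and a median of -1.03. *NDUFA7*, an accessory subunit of complex I, was at 268, 199, 197, 226 and 172 CPM in GV and 4.05, 3.27, 8.33, 6.56 and 3.43 CPM in ‘damaged’ oocytes (-5.43), and *NDUFB7* fell equally far (-5.43). *SDHC*, a membrane subunit of complex II, was the higher DEG (2.21) and stood at 1.97 without GV replicate 3. The 13 respiratory genes of the mitochondrial genome did not follow the nuclear ones, as all 13 passed neither way, with a median of 0.65 that was -0.22 with library sizes and 1.02 without GV replicate 3, in which these genes were highest.

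Antioxidant enzymes fell more often than they rose, with 12 falling and 7 rising of 24 tested, 8 lower and 2 higher DEGs and a median of -0.24. The share that rose was near the 28.3% of all genes, while 32.8% of all genes fell and 16.5% were lower DEGs. *PRDX3*, the peroxiredoxin of mitochondria, was at 124, 90.8, 57.0, 106 and 88.2 CPM in GV and 6.14, 6.45, 8.08, 5.48 and 8.45 CPM in ‘damaged’ oocytes (-3.73), and *NXN* (nucleoredoxin) fell from 18.3 ± 3.98 to 0.415 ± 0.330 CPM (-5.98). Catalase (*CAT*), which breaks down hydrogen peroxide, rose from 84.2 ± 39.6 to 479 ± 138 CPM (2.60), and *GPX1*, a glutathione peroxidase, rose from 7.43 ± 2.70 to 30.1 ± 7.96 CPM (2.06). Both stood higher in every ‘damaged’ library than in any GV library.

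Proteasome subunits split between the directions, and the share that fell was near the 32.8% of all genes, of which 28.3% rose. Of 30 tested, 13 rose and 10 fell, with 4 higher and 2 lower DEGs (3 and 2 without GV replicate 3) and a median of 0.14 that was -0.76 with library sizes. *PSMD4*, a ubiquitin receptor (2.85), and *PSMA5* (2.46) had the largest rises, and *PSMC5* (-3.32) and *PSMA6* (-2.74) were the lower DEGs. *PSMA5* and *PSMA6* belong to the same ring of the core particle, and went from 110 ± 51.6 to 556 ± 53.3 CPM and from 170 ± 56.5 to 24.6 ± 2.97 CPM.

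Genes of cell death and stress moved in both directions, where 5.27% of all genes were higher and 16.5% lower DEGs. The BCL2 family and caspases, with 4 lower DEGs of 21, were near that lower share. The unfolded protein response and heat shock group, with 1 of 31, was below it. Of 21 genes of the BCL2 family and caspases tested, from 29 listed, 6 rose, 8 fell and 7 passed neither way, with none among the higher and 4 among the lower DEGs (3 without GV replicate 3). Among those 4 were *BAD* (-4.37) and *DIABLO* (-2.27), both known to promote cell death, and *DIABLO* was at 10.8 to 19.8 CPM in GV and 2.47 to 3.06 CPM in ‘damaged’ oocytes. Of 31 genes of the unfolded protein response and heat shock, 8 rose, 5 fell and 18 passed neither way, with a median of -0.15. The 2 DEGs were *HSPA9*, the heat shock protein of the mitochondrial matrix (153 ± 25 to 658 ± 92.7 CPM, 2.10), and *HSF1*, the transcription factor of the heat shock response (17.6 ± 11 to 1.31 ± 0.524 CPM, -3.59). *DDIT3* (CHOP), a transcription factor of prolonged endoplasmic reticulum stress, was at 52.9, 26.3, 15.5, 30.9 and 18.2 CPM in GV and 66.9, 62.7, 60.5, 75.8 and 51.5 CPM in ‘damaged’ oocytes, and it rose by 1.25 (FDR 9.14e-05) with overlap of the groups at GV replicate 1.

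Of 22 genes of the DNA damage response, 13 rose, 2 fell and 7 passed neither way, with a median of 0.72 that was -0.17 with library sizes. *CHEK1*, the checkpoint kinase, was at 91.8, 71.2, 43.2, 80.9 and 65.8 CPM in GV and 371, 391, 320, 387 and 280 CPM in ‘damaged’ oocytes (2.33, SE 0.182, FDR 1.69e-09). *BRCA2*, which acts in repair by homologous recombination, rose from 541 ± 119 to 2209 ± 276 CPM (2.05) and stood at 1.92 without GV replicate 3.

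The next question was how the genes changed in oocytes that had formed a polar body stood in ‘damaged’ oocytes. MII oocytes against the same 5 GV libraries gave 744 higher DEGs (5.67%) and 2266 lower DEGs (17.3%). Because both comparisons share the GV libraries, they are not independent, and the values are set side by side. The genes were also chosen by their MII values, which favours larger medians in MII. The 744 genes had a median log2 fold change of 2.33 in MII and 2.28 in ‘damaged’ oocytes, and the 2266 genes a median of -3.04 and -2.95. No ‘damaged’ library lay near GV by this measure. Over the 744 genes, the medians against the GV mean were 2.16, 2.18, 2.17, 2.17 and 1.97 in the 5 ‘damaged’ libraries and 2.09 to 2.28 in the MII libraries. Over the 2266 genes they were -2.36, -2.44, -2.36, -2.34 and -2.26 in the ‘damaged’ libraries and -2.51 to -2.28 in the MII libraries. These values of single libraries are ratios to the arithmetic GV mean with 0.5 CPM added to both. They are thus not on the same measure as the limma fold changes of the groups.

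Compared directly, ‘damaged’ and MII oocytes had 0 DEGs of 13111 genes (0.0%), with limma, edgeR and DESeq2 alike. At an unadjusted p under 0.05 there were 149 genes with limma (1.14%), 194 with edgeR and 186 with DESeq2, and the smallest FDR with limma was 0.999917. These counts lie below the rate that a threshold of 0.05 gives when no gene differs. The p-values may thus be too large and the 95% intervals below too wide, and the reason was not tested. With a replicate block and without GV replicate 3, limma gave a smallest FDR of 0.0236, 2 genes with an FDR under 0.05 and 0 DEGs. A missing call does not show equality, so the 95% intervals of the differences are given. The interval lay within a log2 difference of 1 either way for 9748 genes (74.3%) and wholly beyond 1 for 0 genes, with a median half-width of 0.54. Of the 2848 DEGs of ‘damaged’ against GV oocytes, 1426 (50.1%) had an interval within 1, and for the rest the interval does not exclude a larger difference. With the 8 libraries named alike in both sources there were also 0 DEGs, with 236 genes at an unadjusted p under 0.05.

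**Figure D4:**
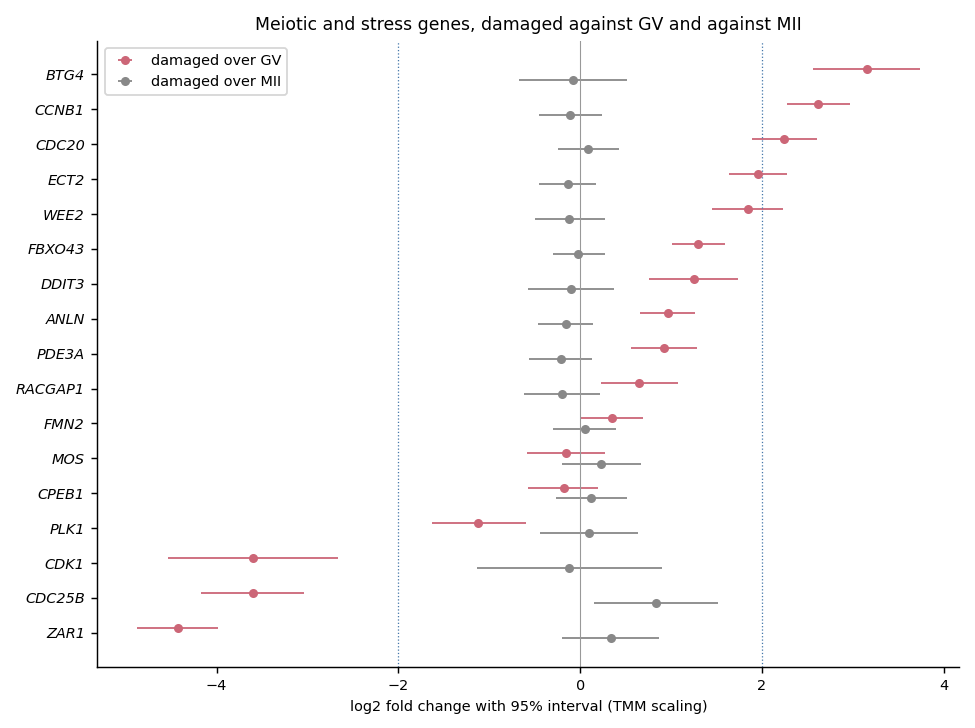
Log2 difference (x axis) of 17 genes (y axis) between ‘damaged’ and GV oocytes and between ‘damaged’ and MII oocytes; points are estimates from limma and lines their 95% intervals. The differences from MII lie close to 0, as for *CCNB1* with -0.11 (-0.45 to 0.24), while those from GV spread from -4.43 for *ZAR1* to 3.15 for *BTG4*.

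No gene of any kind was called between oocytes without and with a polar body, so none of chromosome segregation or cytokinesis was. The log2 difference of ‘damaged’ over MII oocytes was -0.11 (95% interval -0.45 to 0.24) for *CCNB1*, 0.09 (-0.25 to 0.43) for *CDC20*, -0.14 (-0.45 to 0.17) for *ECT2*, and 0.05 (-0.30 to 0.39) for *FMN2*. For *ANLN* it was -0.16 (-0.46 to 0.14) and for *RACGAP1* -0.20 (-0.62 to 0.22), so none of these 6 differed by as much as 1 on the log2 scale within its interval. The interval was wider for *CDK1*, at -0.12 (-1.14 to 0.90). Of the genes drawn in the plot of intervals, *CDC25B* had the one interval without 0, at 0.83 (0.15 to 1.51, unadjusted p 0.0192), from 10.5 ± 4.51 CPM in ‘damaged’ and 5.75 ± 2.08 CPM in MII oocytes, and it did not pass adjustment over all genes.

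The medians of the gene groups against the shared GV libraries are set side by side for both cultured groups. The spindle group had a median log2 fold change of 1.82 in MII and 1.73 in ‘damaged’ oocytes, cohesin 1.66 and 1.54, the APC/C group 1.22 and 1.23, polar body and actin 0.26 and 0.24 (negative in ‘damaged’ oocytes with library sizes), cytosolic ribosomal proteins -1.29 and -1.33, and mitochondrial ribosomal proteins -1.28 in both. The medians lay farther apart for oocyte transcription factors, at -0.93 in MII and -0.61 in ‘damaged’ oocytes, for the BCL2 family, at -0.39 and -0.24, and for the CDK1 and cyclin B switch, at 0.08 and -0.05. The median of the gene by gene difference between ‘damaged’ and MII oocytes was -0.02 for the transcription factors, -0.03 for the BCL2 family and -0.01 for the switch. In MII oocytes 1 polar body and actin gene was a higher and 1 a lower DEG, against 0 and 1 in ‘damaged’ oocytes.

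The 5 genes with the smallest p between ‘damaged’ and MII oocytes were all low in level. *NME1* had a log2 difference of -1.36 (-2.14 to -0.58, unadjusted p 0.00171), *NIBAN3* of 2 (0.80 to 3.21), *LYRM9* of -1.20 (-1.92 to -0.47), *FBXO47* of -1.11 (-1.81 to -0.40) and *CORO2A* of 1.32 (0.47 to 2.17). *NME1*, a nucleoside diphosphate kinase, was at 1.62, 0.559, 0.907, 0.678 and 1.33 CPM in ‘damaged’ oocytes and at 2.75 ± 1.33 CPM in MII oocytes. None of the 5 passed adjustment, and they are listed as the leading candidates of this comparison only.

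Many genes changed which of their isoforms the RNA came from, whether or not the gene's level changed. The isoform fraction (IF) is the share of a gene's RNA that a transcript holds, and the dIF is its difference, ‘damaged’ minus GV. Of 10066 isoforms tested in 3501 genes, 1984 were used more in ‘damaged’ oocytes (19.7%) and 1923 less (19.1%), where a call needs an FDR under 0.01 and a dIF beyond 0.1. These differential transcript usage (DTU) calls fell in 2096 genes (59.9% of those tested, all preselected for an isoform with a dIF beyond 0.1), of which 285 (13.6%) were also DEGs and 1811 were not. Without that preselection, 2075 of 4788 genes tested had a call. In simulated data, 22 of 221 genes called after the preselection were false calls, and 3 of 201 without it. Isoform fractions are estimates from single-end reads, and their uncertainty was not measured. The called isoforms had a median absolute dIF of 0.309 against GV, and a median absolute difference in IF of 0.0206 between ‘damaged’ and MII oocytes, with 342 of them (8.75%) beyond 0.1. Usage was not tested between ‘damaged’ and MII oocytes.

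**Figure D5:**
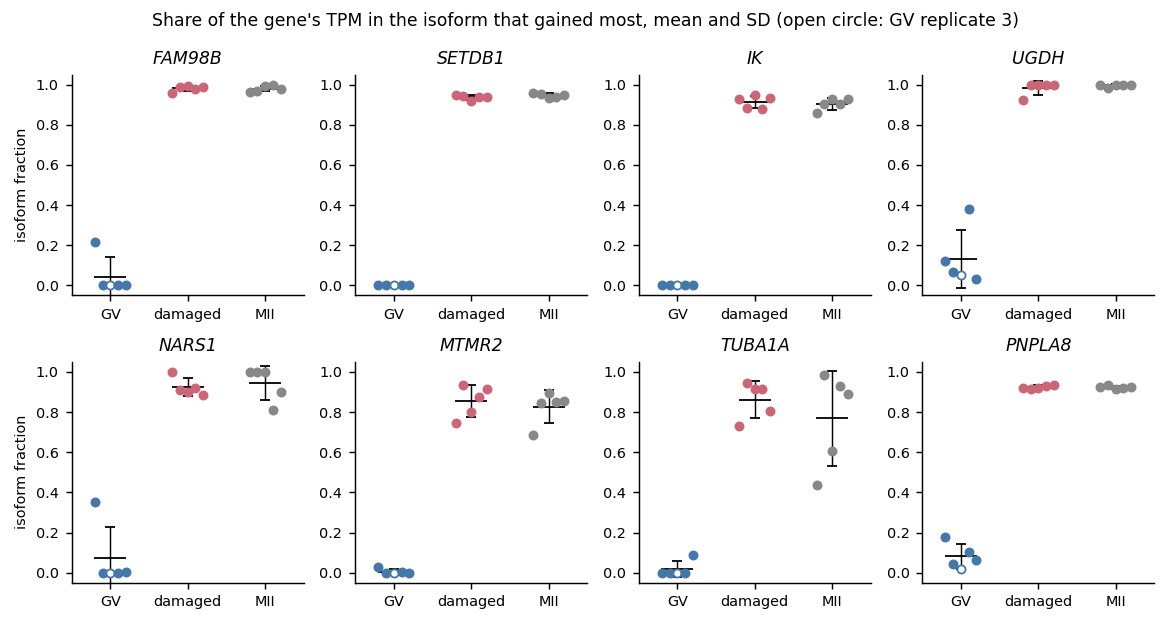
Isoform fraction (y axes, 0 to 1) of the most gained isoform of 8 genes in each GV, ‘damaged’ and MII library (x axes); each point is a library. In *SETDB1* all 5 GV libraries are at 0 and the ‘damaged’ libraries lie between 0.916 and 0.95.

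The 8 genes named for the largest dIF had a gain of 0.843 to 0.938 in 1 isoform. The 1254-base isoform of *FAM98B*, a subunit of the tRNA ligase complex, held an IF of 0.218, 0, 0, 0 and 0 in GV and 0.958, 0.989, 0.994, 0.979 and 0.986 in ‘damaged’ oocytes (dIF 0.938, FDR 9.46e-12). The 1108-base isoform of *SETDB1*, a histone H3 methyltransferase, was listed at 0 in all GV libraries and held 0.95, 0.942, 0.916, 0.939 and 0.939 in ‘damaged’ oocytes (dIF 0.937, FDR 2.67e-174). The level of *SETDB1* then depended on how isoform length entered the gene value, with a log2 fold change of 1.37 from length-scaled values and -0.59 from summed estimated counts. A 1775-base isoform of *IK*, a splicing factor, went from 0 to 0.877 to 0.948 (dIF 0.914). The other 5 were *UGDH* (0.854), *NARS1* (0.852), *MTMR2* (0.848), *TUBA1A* (0.844) and *PNPLA8* (0.843). The gained isoform already held 0.381 in GV replicate 4 for *UGDH* and 0.352 in GV replicate 1 for *NARS1*. In *TUBA1A* the 1698-base isoform, at 1, 1, 0, 1 and 0.00749 in GV, was not called as lost (FDR 0.0882). The 8 were chosen among genes that were not DEGs.

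*RAB4B*, a small GTPase of recycling endosomes, was at 4.61 to 9.82 CPM in GV and 0.705 to 2.66 CPM in ‘damaged’ oocytes and was a lower DEG (-2.26), without a called isoform. *DTNBP1* (dysbindin), which works in the making of lysosome-related organelles, was at 8.31 ± 1.74 and 10.1 ± 1.32 CPM and did not pass the test at the gene level (0.27, and -0.62 with library sizes). Its isoforms were not called with all libraries, and without GV replicate 3 a pair of them had an FDR under 0.01, with a dIF of 0.222 and of -0.245.

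Isoforms of *RAB4B* and *DTNBP1* also separated ‘damaged’ from MII oocytes. The 1149-base isoform of *RAB4B* held an IF of 0.888, 0.795, 0.213, 0.377 and 0.494 in the ‘damaged’ libraries, 0.0864 to 0.743 in GV, and was listed at 0 in all 5 MII libraries. The 1315-base isoform of *DTNBP1* held 0.0279, 0.103, 0.0883, 0.162 and 0.139 in ‘damaged’ oocytes, 0.304 to 0.44 in 4 GV libraries and close to 0 in GV replicate 3, and was also listed at 0 in all 5 MII libraries. Both genes were taken up because the study names them from these same libraries, so the separation is a description without a test, and *RAB4B* was low in ‘damaged’ oocytes, with a mean of 1.79 TPM.

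The isoforms gained were shorter on the whole. Isoforms used more in ‘damaged’ oocytes had a median length of 2650 bases, those used less 3435 bases, and all tested 2977 bases. In 1527 genes with a call in each direction, the isoform with the largest gain was shorter than the one with the largest loss in 931 (61.0%) and longer in 596. In 267 genes an isoform gained and another lost more than 0.5 in IF. The gene level did not show the same order. The longest transcript had a median of 2909 bases in DEGs that rose and 2600 bases in DEGs that fell. Both were below the 3505 bases of all genes tested.

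Isoform switches were found in each group of meiotic genes, beside 59.9% of all genes tested after the preselection by dIF. Of the polar body and actin genes, 12 of 17 tested had a called isoform, of the spindle genes 7 of 8, of cohesin 5 of 8, of the CDK1 and cyclin B switch 6 of 8, and of the APC/C and its inhibitors 2 of 7. In *ANLN* the 4725-base isoform rose from an IF of 0.21 to 0.866 (FDR 0.00168), while a 4614-base isoform with 0.359 in GV and a 4455-base isoform with 0.415 gave way to it. Of the unfolded protein response and heat shock genes 13 of 14 had a called isoform. Among them, the 2298-base isoform of *HSP90AA1*, a cytosolic chaperone, went from 0.0468 to 0.785 while its 2844-base isoform went from 0.907 to 0.187, and a 1258-base isoform of *CALR* (calreticulin), the calcium-binding chaperone of the endoplasmic reticulum, went from 0.0162 to 0.816. In *CPEB3*, of the storage group, a 4113-base isoform that held 0 in GV held 0.666 in ‘damaged’ oocytes.

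Single transcripts tested on their own gave the same contrast of a gene's parts moving apart. Of 21573 transcripts tested, 2097 were higher (9.72%) and 3342 lower (15.5%) in ‘damaged’ oocytes, in 4430 genes. In 295 genes at least 1 transcript was called higher and another lower, and 271 of these genes were not DEGs. For *HSP90AA1*, the 2844-base transcript fell from 842 ± 78.8 to 178 ± 27.3 CPM (log2 fold change -2.25, FDR 1.05e-08), and the 2298-base transcript rose from 35.7 ± 16.4 to 634 ± 192 CPM (4.23, FDR 1.64e-07). For *KIF20A*, the kinesin of the cytokinetic midzone, 1 transcript rose from 30 ± 20.8 to 250 ± 45.4 CPM (4.25) and another went from 55.4 ± 24.0 to 0.0547 ± 0.122 CPM (FDR 7.57e-05). No transcript was called between ‘damaged’ and MII oocytes with limma, where 380 had an unadjusted p under 0.05 and the smallest FDR was 0.87.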

How the data were processed

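RNA of 15 pooled oocytes per library was turned into cDNA with the SMART-Seq HT kit from poly(A) RNA and sequenced as single-end reads. The authors trimmed reads with AfterQC and quantified them with Kallisto 0.43 (Sscrofa11.1, Ensembl cDNA), and the deposited file of each library gives estimated counts and transcripts-per-million (TPM) per transcript. The authors' gene table holds estimated counts per gene and was used only to pair transcripts with genes: 35776 of 38027 transcripts were paired with 17643 genes, which held 99.985% to 99.998% of the counts. Its columns name 7 of the 15 libraries differently from the transcript files, and these 7 columns were not used. Sums of 6.40 to 19.6 M estimated counts per library set the precision, and intervals cover the spread between libraries.

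Gene values were length-scaled TPM summed over transcripts. Genes passing filterByExpr (minimum count 10) were tested with voom and limma 3.58.1 in R 4.3.3 on all 15 libraries in 3 groups with TMM factors from edgeR 4.0.16, and p-values were adjusted by Benjamini and Hochberg over all genes. Per-library values are TMM-scaled CPM. Isoforms of genes with a TPM of at least 1, an IF of at least 0.05 and a dIF beyond 0.1 were tested with the DEXSeq model fitted in DESeq2 1.42.0, as DEXSeq itself was not installed. Scripts were tested on simulated data, where the gene tests made no false call while the isoform test, after the preselection by dIF, made more than its FDR allows. The simulation changed 200 genes, as many up as down, in libraries of otherwise like composition. TMM scaling and library sizes both recovered all 200, so it cannot tell which scaling suits these data.

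The members, gene lists and genes to be named were chosen with earlier results of these data known. Named were the 12 largest rises and falls among non-overlapping DEGs with a symbol and at least 10 CPM, the leading DEGs of each list (up to 2 each way), 20 fixed genes of maturation (of which *AURKA* and *BCL2L10* had no row and 1 is not reported here), the 5 smallest p-values against MII, the 8 largest dIF in genes that were not DEGs (TPM at least 10), *RAB4B* and *DTNBP1*, and other cells' markers of at least 10 CPM. All other members named beside a count, and the isoforms of *ANLN*, *HSP90AA1*, *CALR*, *CPEB3* and *KIF20A*, were chosen after their values were seen. Replicates are separate collections per the study's methods, and the main fits did not pair groups by collection. Gene coordinates are those of RefSeq on Sscrofa11.1. No sequence is printed.

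Alternatives were scaling by library size, other filters, edgeR, DESeq2, summed counts, library weights, a fit of 2 groups, a replicate block and leaving out each library. Those with 8 libraries named alike, with library sizes or the replicate block without GV replicate 3, and without the dIF preselection were added after seeing the data.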

Additional observations from a re-analysis of the deposited data

Results flagged for a closer look

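Each group of 5 libraries was searched for a highest or lowest value far from the other 4 (Dixon's test at the 95% level), and 9 of 132 groups were singled out, where chance alone does so in about 1 of 20. *PDIA2* in ‘damaged’ oocytes had 1 library at 0.664 CPM with the others between 0 and 0.14 CPM. *SDS* had a highest value of 21.1 CPM in GV, with the others at 11 to 12.7 CPM, and of 0.312 CPM in ‘damaged’ oocytes, with the others at 0 to 0.0656 CPM. *YIF1A* in ‘damaged’ oocytes had 1 library at 0.977 CPM with the others at 0.0782 to 0.283 CPM.

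GV replicate 3 accounted for the share of counts held by the 10 most abundant genes, at 13.3% the highest of the GV libraries, and for the respiratory genes of the mitochondrial genome, whose median log2 level over the GV mean was 1.57 in that library. Among group medians on the same scale, cohesin was lowest at -0.168 and sperm binding and egg activation at -0.115 in 1 GV library each, and antioxidant enzymes at -0.749 in 1 ‘damaged’ library. The part of depth, collection or other cells in these values was not tested.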

How the results depend on the processing

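Library sizes gave 64 higher and 3736 lower DEGs in place of 691 and 2157, a 10 CPM filter 188 and 994 (the median of the genes shared with the full test moved by 0.447 on the log2 scale), and library sizes without GV replicate 3 gave 44 and 3672. The 10 CPM filter gave 1231 DEGs for MII against GV in place of 3010, and library sizes gave 958 higher and 5077 lower transcripts. The filter itself leaves fewer genes to test, and for the scalings the cause was not tested. The other alternatives with all libraries gave 610 to 842 higher and 2106 to 2624 lower DEGs. Leaving out 1 library at a time gave 540 to 891 higher and 2141 to 2311 lower DEGs, 0 DEGs throughout between ‘damaged’ and MII oocytes, 2851 to 3390 DEGs for MII against GV, and 3366 to 4285 called isoforms.

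Of 2016 values of 107 named genes under these alternatives, 1944 kept direction and side of the threshold, 48 lost a call, 18 gained one and 6 changed sign. Those were *DTNBP1* (-0.62 with library sizes, -0.18 with the 10 CPM filter), *FMN2* (-0.55 and -0.10), *RACGAP1* (-0.25 with library sizes) and *SETDB1* (-0.59 with summed counts). With the 10 CPM filter the medians of cyclic AMP genes (0.12), chromatin (-0.36), the BCL2 family (0.10) and the proteasome (-0.27) also changed sign.

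By the study's methods, oocytes of each group were taken in 5 independent collections. The labels number the replicates of each group, but nothing in them ties a number to a shared collection. The main fits and their intervals did not pair the groups. Same-numbered libraries of GV and ‘damaged’ oocytes correlated at -0.0814 to 0.293 in their deviations, with 3 of 5 ‘damaged’ libraries correlating best with their own number. Between ‘damaged’ and MII oocytes, same-numbered libraries correlated at 0.02055 to 0.2046. ‘Damaged’ replicates 1, 3, 4 and 5 each correlated best with the MII library of their own number. For replicate 4 the margin was narrow (0.02055 against 0.01652 with MII replicate 2). ‘Damaged’ replicate 2 correlated best with MII replicate 4 (0.2772). A replicate block gave 684 higher and 2153 lower DEGs. Between ‘damaged’ and MII oocytes the block gave 0 DEGs with a smallest FDR of 0.811. The block without GV replicate 3 also gave 0 DEGs, with a smallest FDR of 0.0236 and 2 genes with an FDR under 0.05. Against GV the block without GV replicate 3 gave 552 higher and 2150 lower DEGs.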
